A study of Mus musculus with 44 samples.

Results

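The subcortical maternal complex is an assembly of oocyte proteins that lies beneath the egg membrane and passes into the early embryo. The 6 genes described here were Nlrp5, Ooep, Tle6, Khdc3, Padi6 and Zbed3, found by their symbols among the 35269 annotated features of a single-embryo RNA-seq table. All 6 were among the 16412 genes with a mean log2 value of at least 0 over the 44 embryos, which were the genes tested. Their transcripts were compared across 4 groups of mouse embryos at the two-cell stage, collected as 6 litters.

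WT embryos (Dppa2/4+/+, n = 14) came from Dppa2/4+/+ females mated with Dppa2/4+/+ males. HET1 embryos (Dppa2/4+/-, n = 15) came from Dppa2/4m- females mated with Dppa2/4+/+ males. HET2 embryos (Dppa2/4+/-, n = 5) and HOM embryos (Dppa2/4-/-, n = 10) came from Dppa2/4m- females mated with Dppa2/4+/- males, so they shared litters. Dppa2/4m- females carried floxed Dppa2/4 alleles removed by Zp3-Cre, which acts in growing oocytes, so HET1, HET2 and HOM embryos all lacked an intact maternal allele in the egg. Each cross was set up as mating 1 and mating 2, with 10 and 4 WT embryos, 7 and 8 HET1 embryos, 4 and 1 HET2 embryos, and 3 and 7 HOM embryos. Embryos of 1 litter shared a mother and each cross had 2 litters, so p-values taken over embryos are too small to the extent that litters differ.

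The authors assigned HET2 and HOM from the level of Dppa2 and Dppa4 transcripts, so those levels check nothing between these groups. In the WT and HET1 groups, which the cross alone defines, Dppa2 differed by -1.99 log2 (SE 0.36) and Dppa4 by -1.63 log2 (SE 0.36) on the deposited values, both lower in HET1. The two-cell markers Zfp352, Zscan4d and Tdpoz4 had reads in 44, 42 and 42 of the 44 embryos and Zscan4c in 26. Among 7 markers of cumulus cells, Fshr had 0 reads in every embryo and Amh, Foxl2, Inha and Has2 had reads in at most 3 embryos, while Amhr2 had reads in 43 and Cyp19a1 in 16. Summed over those 7 markers the level was 11.7 to 79.1 RPM (reads scaled to a common library total) in WT, 6.35 to 68.7 in HET1, 5.41 to 32.6 in HET2 and 10.2 to 116 in HOM embryos. That sum is mostly Amhr2, at a mean of 34.5 RPM, with Cyp19a1 next at 1.71. The later lineage markers Cdx2, Gata6 and Sox17 had reads in 1, 11 and 6 embryos, Sox17 with up to 60 reads in WT.

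In the mouse, proteins of this complex are made during oocyte growth, and the complex is known as a maternal-effect machine: eggs that lack a core member are fertilised, but the embryos often arrest or cleave unevenly at the first divisions. NLRP5, also called MATER, OOEP, also called FLOPED, and TLE6 form the core. KHDC3, also called FILIA, is an RNA-binding-domain protein that joins the core, PADI6 is a peptidylarginine deiminase family member needed for the cytoplasmic lattices of the egg, and ZBED3 is a zinc-finger protein linked to the position of the first spindles. Messenger RNAs for such proteins are inherited from the oocyte and are largely cleared as the embryo begins its own transcription at the two-cell stage.

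The RefSeq promoter windows (GRCm38.p6, the 250 bases before the gene start on the gene's strand) of the 3 members whose RefSeq start lies within 7 bases of the annotated gene start are shown because these genes represent the core, the deiminase and the most abundant transcript. Capitals mark the E-box letters CANNTG, searched on both strands, and the homeobox letters TAATTA or TAATTG, also searched on both strands.
Nlrp5 (chr7:23385639-23385888, + strand): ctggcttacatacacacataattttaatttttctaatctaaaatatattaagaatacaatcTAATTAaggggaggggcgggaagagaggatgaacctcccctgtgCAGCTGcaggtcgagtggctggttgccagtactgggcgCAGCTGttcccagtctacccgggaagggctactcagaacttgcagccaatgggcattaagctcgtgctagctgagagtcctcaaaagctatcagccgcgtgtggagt
Padi6 (chr4:140742644-140742893, - strand): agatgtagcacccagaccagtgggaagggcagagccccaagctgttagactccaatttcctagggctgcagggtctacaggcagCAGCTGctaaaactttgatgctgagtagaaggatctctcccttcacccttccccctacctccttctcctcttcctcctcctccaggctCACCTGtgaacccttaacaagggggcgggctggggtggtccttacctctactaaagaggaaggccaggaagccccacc
Zbed3 (chr13:95323355-95323604, + strand): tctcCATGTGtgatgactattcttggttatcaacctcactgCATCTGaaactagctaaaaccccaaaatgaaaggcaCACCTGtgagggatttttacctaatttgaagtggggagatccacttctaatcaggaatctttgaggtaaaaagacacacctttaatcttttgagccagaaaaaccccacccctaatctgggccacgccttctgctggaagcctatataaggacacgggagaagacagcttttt
E-box letters were in the window of 6 of the 6 members, against 66.2% of 32851 windows of this length, and the homeobox letters in 2 of 6 (Nlrp5 and Ooep), against 11.3%. Of the other letters searched on both strands, CCAAT was in 5 of the 6 windows, against 33.8%, GGGCGG in 4, against 32.7%, and TATAAA in 0, against 12.4%. The windows of Ooep, Tle6 and Khdc3, counted here, lie before RefSeq starts that are 137, 173 and 562 bases from the annotated gene start. These matches describe the letters of the windows and are not binding sites.

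Zbed3 stood far above the other members. Compared per length, as RPM per kb of merged exons, the mean over 44 embryos was 1190 ± 951 (SD) for Zbed3, 27.7 ± 17.0 for Padi6, 11.0 ± 7.32 for Tle6, 7.62 ± 4.20 for Nlrp5, 3.84 ± 4.18 for Ooep and 3.38 ± 5.98 for Khdc3. Zbed3 exceeded Padi6 in 44 of 44 embryos and Padi6 exceeded Tle6 in 43. The lower neighbours were less separated: Tle6 was above Nlrp5 in 29 embryos and below in 15, and Ooep was above Khdc3 in 24 and below in 19. Not divided by length, Zbed3 made up 78.1% to 98.5% (median 94.0%) of the summed RPM of the 6 members, and its mean log2 value ranked 16 of 35269 features.

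**Figure D1:**
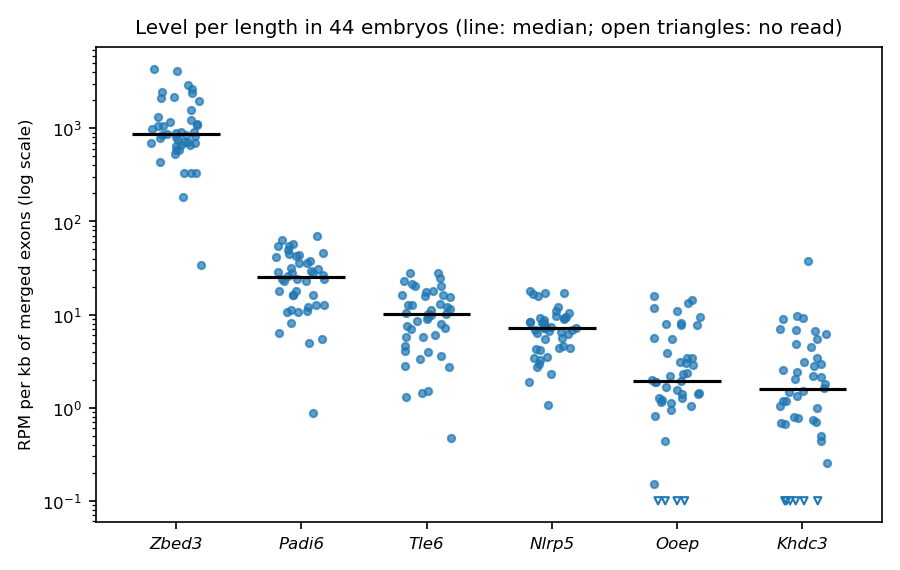
RPM per kb of merged exons on a log scale for each member in 44 embryos, each point being 1 embryo, the line the median and open triangles embryos with no read, drawn at 0.1. Zbed3 embryos sit between 34.4 and 4380, above every other member in the same embryo.

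The depth behind these values was low for the rarer members. The reads recovered from the deposited values numbered 105 to 6451 per embryo for Zbed3 (median 1896.5), 3 to 208 for Padi6 (median 59), 4 to 245 for Nlrp5 (median 32) and 1 to 107 for Tle6 (median 30.5). Ooep had 0 to 45 reads (median 6.5) and none in 4 embryos, since 40 of 44 had reads. Khdc3 had 0 to 64 reads (median 3) and reads in 38 of 44. Khdc3 (chromosome 9, 73101836 to 73104438) also shares exons on the same strand with the annotated gene Gm20509, which had more reads than Khdc3 in 40 embryos, so that Khdc3 values are uncertain. The annotated Zbed3 gene contains the small nucleolar RNA genes Snora47 and Gm22661, and the part that these may take of its reads was not tested.

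Total reads differed between the groups, with medians of 1770009.5 in WT, 528166 in HET1, 1108889 in HET2 and 803369 in HOM. A gene without reads was deposited at the value of 0.9 read, which is a higher log2 RPM in a shallower embryo. In simulated data with these depths and no change between groups, the test of HET1 against WT on values as deposited made many calls, nearly all of them among genes of low level, and a common floor, at which any value under 1.86 log2 RPM (that of a gene without reads in the shallowest embryo) is set to 1.86, removed them. Calls below are therefore given on the deposited values and with this common floor, and for HET1 against WT the adjusted p-values of the deposited scale cannot be taken at their face value.

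WT embryo j of mating 1 stood apart from the other embryos. It held the lowest value of all 44 embryos for Nlrp5, Tle6, Padi6 and Zbed3, with 7, 2, 3 and 105 reads, and had 0 reads of Ooep and Khdc3, out of 1367153 total reads. The members' differences in comparisons with WT, and between the WT litters, are given with and without it.

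The first comparison asked whether the members differed in embryos that had lost the maternal Dppa2/4 supply but received an intact paternal allele. Zbed3 ranged from 6.26 to 11.22 log2 RPM (median 10.64) in WT and from 9.53 to 13.25 (median 11.44) in HET1 embryos. The ranges overlapped, with 9 of 15 HET1 embryos above the highest WT embryo and 13 above the WT mean. Tle6 ranged from 0.55 to 5.10 (median 4.02) in WT and from 2.01 to 6.43 (median 5.30) in HET1, and 14 of 15 HET1 embryos were above the WT mean. Ooep ranged from -0.84 to 2.88 (median 1.72) in WT and from 1.15 to 5.09 (median 3.06) in HET1, with 8 of 15 HET1 embryos above the highest WT embryo. These Ooep values rest on few reads. The lowest WT value was that of embryo h, with 0 reads, and the lowest HET1 value that of embryo e, with 1 read. HET1 embryo d exceeded the highest WT embryo, a, with 3 reads against 22.

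On the deposited values the test called 3 of 6 members higher in HET1, where it called 21.4% of all genes tested higher. These were Zbed3 (1.26 log2, SE 0.35, limma adjusted p = 0.009), Tle6 (1.43, SE 0.43, adjusted p = 0.014) and Ooep (1.76, SE 0.58, adjusted p = 0.023). With the common floor, 2.49% of all genes were called higher and 2 of the members: Tle6 at 1.34 (SE 0.40, limma adjusted p = 0.043) and Ooep at 1.20 (SE 0.37, limma adjusted p = 0.049). Zbed3, whose values the floor does not touch, was at 1.26 (SE 0.41, limma adjusted p = 0.067). Nlrp5, Khdc3 and Padi6 were not called under either, with differences of 0.55 (SE 0.35), 0.91 (SE 0.57) and 0.91 (SE 0.39) on the deposited values and 0.55, 0.20 and 0.86 with the floor.

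With litter as a random effect or log2 total reads as a covariate, the test called 0 of 16412 genes in HET1 against WT, members included, with 3471 and 2076 genes at an unadjusted p under 0.05 by limma. With the random effect, Zbed3, Tle6 and Ooep differed by 1.17, 1.40 and 1.64 log2 with limma adjusted p = 0.16, 0.18 and 0.22. With the covariate they differed by 0.86, 1.43 and 1.33 with limma adjusted p = 0.39, 0.22 and 0.41. The count of members called was also 0 without mating 2 of the HET1 cross, where 0.816% of all genes were called in either direction and Zbed3, Tle6 and Ooep differed by 0.48, 1.56 and 0.90. It was 0 as well without mating 1 of the WT cross, where 0.774% of all genes were called and these members differed by 0.71, 1.16 and 1.03. Without WT embryo j the differences on the deposited values were 0.37 for Nlrp5, 1.60 for Ooep, 1.18 for Tle6, 0.78 for Khdc3, 0.61 for Padi6 and 0.95 for Zbed3, and the same 3 members were called, where 17.3% of all genes were called higher. Together with the common floor 0 members and 1.34% of all genes were called higher, with Zbed3 at 0.95 (adjusted p = 0.13 by limma). Over 27 or 28 alternatives the limma adjusted p ranged from 0.0002 to 0.50 for Zbed3, from 0.0034 to 0.53 for Tle6 and from 0.0034 to 0.68 for Ooep. In whole embryos, more transcript per cell and a larger share of the RNA that a library captured cannot be told apart.

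**Figure D2:**
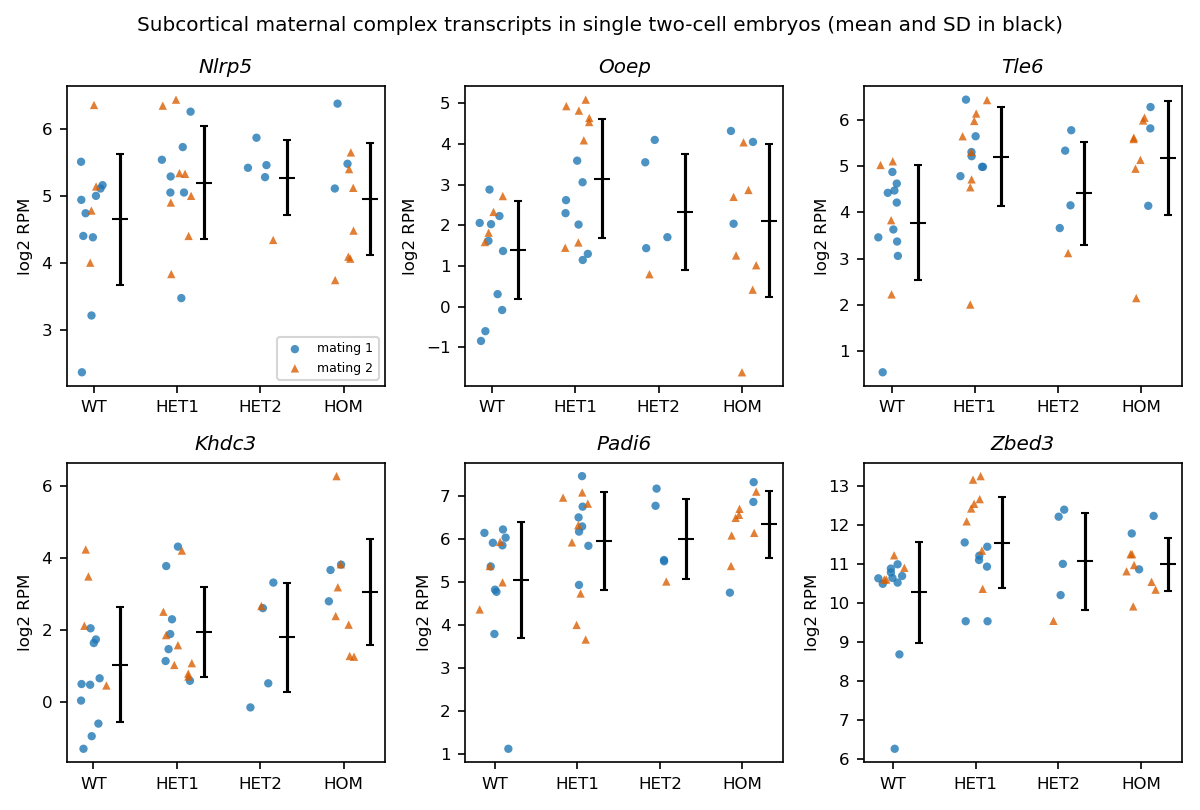
log2 RPM of each member by group, each point being 1 embryo (circles mating 1, triangles mating 2), with the mean and SD in black beside the points. The groups overlap for all 6 members, and WT embryo j is the lowest point for Nlrp5, Tle6, Padi6 and Zbed3.

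In HET2, the Dppa2/4+/- embryos from the other cross, no member was called against WT by limma, where 0.0122% of all genes were called and 1565 genes had an unadjusted p under 0.05. With the common floor 0 members and 0.0305% of all genes were called, and the 6 differences were between 0.28, for Khdc3, and 0.89. Zbed3 was 11.00, 10.20, 12.39, 12.21 and 9.54 log2 RPM in the 5 embryos, the last being the only HET2 embryo of mating 2. Tle6 was 4.15, 3.66, 5.33, 5.77 and 3.12 in the same embryos. The embryo from mating 2 was the lowest of the 5 for both genes and for Nlrp5, Ooep and Padi6. The differences from WT were between 0.63 and 0.94 log2 for the 6 members, and between 0.38 and 0.78 without WT embryo j, where Zbed3 went from 0.79 to 0.48 and Tle6 from 0.63 to 0.38. None of the 6 had a limma adjusted p under 0.05 in any of the 27 or 28 alternatives. Nlrp5, Ooep, Tle6, Padi6 and Zbed3 lay below WT, by -0.31, -0.59, -0.65, -0.04 and -0.74, when mating 1 of this cross was left out, which leaves 1 HET2 embryo.

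HOM embryos, which lacked both the maternal supply and an intact zygotic allele, had 0 of 6 members called against WT by limma, where 0.0731% of all genes were called and 3469 had an unadjusted p under 0.05. With the common floor 0 members and 0.0183% of all genes were called. Khdc3 ranged from -1.30 to 4.24 (median 0.58) in WT and from 1.26 to 6.28 (median 3.00) in HOM, and its difference was 2.03 log2 (SE 0.63, limma adjusted p = 0.092) on the deposited values and 1.01 (SE 0.39, limma adjusted p = 0.23) with the common floor. All 10 HOM embryos were above the WT mean of Khdc3 (1.04), which rests on few reads. That mean includes embryos without reads, such as WT embryos g (-1.30) and j (-0.60), while HOM embryo d passed it with 1 read (1.26). HET1 embryos g and l, with 0 reads, also lay above it (1.14 and 1.86). The count of HOM embryos above that mean therefore does not by itself show a higher level. Without mating 1 of the WT cross, which leaves 4 WT embryos, the Khdc3 difference was 0.49, and over the 6 litters, the 5 HET2 embryos, WT embryo j and HOM embryos f and h left out in turn it ran from 0.49 to 2.64. Without HOM embryo h, the highest for Khdc3, it was 1.67 (SE 0.63, limma adjusted p = 0.17). Tle6 differed by 1.39 (SE 0.48) and Padi6 by 1.29 (SE 0.44), each with limma adjusted p = 0.11, and 9 of 10 HOM embryos were above the WT mean for both. Nlrp5, Ooep and Zbed3 differed by 0.30, 0.72 and 0.72 log2. All genes tested also leaned upward in HOM, with a median of 0.49 and 12624 of 16412 positive, beside a members' median of 1.005. Re-centring each embryo on its own median gave 0.18 for all genes and 0.693 for the members. The common floor gave 0.089 and 0.862. Without WT embryo j the differences were 0.13 for Nlrp5, 0.57 for Ooep, 1.14 for Tle6, 1.90 for Khdc3, 0.99 for Padi6 and 0.41 for Zbed3, and again no member was called by limma. With array weights, under which 6.03% of all genes were called, 1 member, Khdc3, was called (limma adjusted p = 0.04), and its limma adjusted p ranged from 0.04 to 0.95 over 27 alternatives.

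The comparison of HOM with HET2 within litters held the mother and the litter constant and asked for the effect of the embryo's own genotype. No member was called by limma, where 0.0122% of all genes were called, Dppa2 and Dppa4 by the assignment itself, and 784 genes had an unadjusted p under 0.05. With the common floor 0 members and 0.0183% of all genes were called. The differences were 0.20 for Nlrp5, 0.75 for Ooep, 1.11 for Tle6, 1.31 for Khdc3, 0.50 for Padi6 and 0.51 for Zbed3. The 6 values were positive, and 5 of the 6 with each embryo re-centred on its own median, against a median of 0.34 over all genes tested that re-centring brought to 0.04. Of the 5 HET2 embryos, 4 were in 1 litter, and without the litter term the differences of Nlrp5, Ooep and Zbed3 were -0.33, -0.21 and -0.07. With 1 litter, 1 HET2 embryo, WT embryo j or HOM embryo f or h left out, Khdc3 ran from 0.24 to 1.86. Tle6 ran from 0.68 to 1.94, Padi6 from 0.08 to 1.34 and Zbed3 from 0.17 to 1.18. Ooep ran from 0.49 to 1.05 and Nlrp5 from 0.14 to 0.31.

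**Figure D3:**
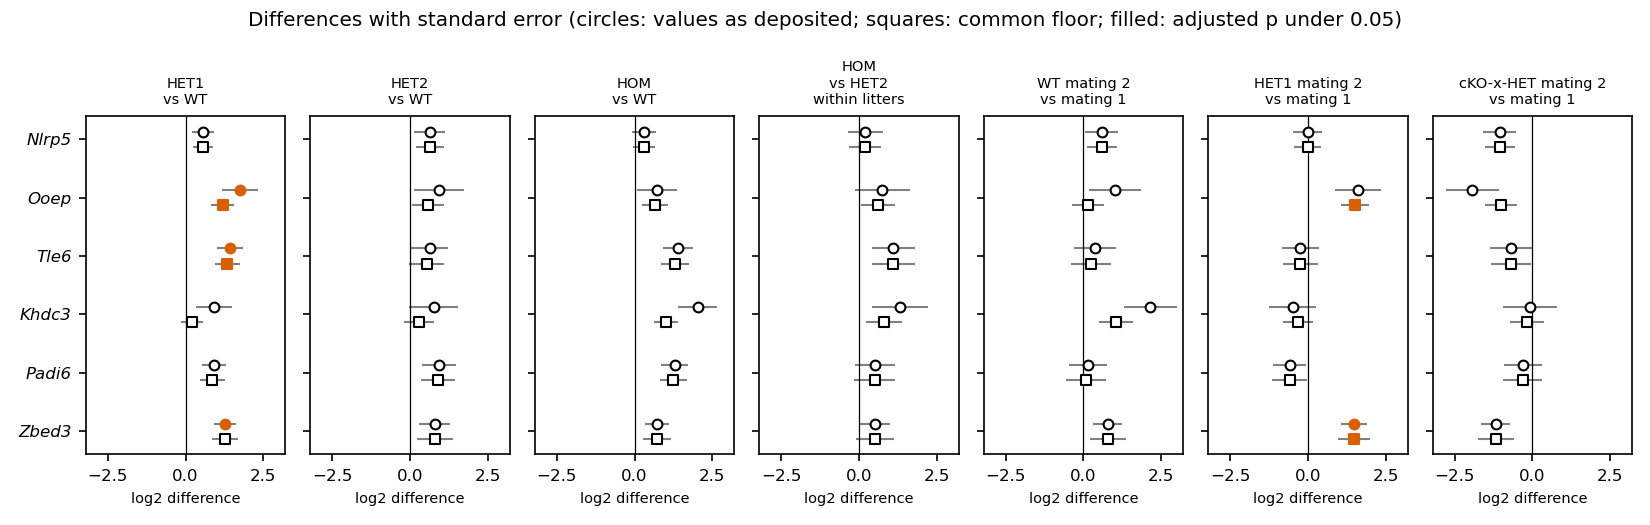
log2 difference with its standard error for each member in 7 comparisons, circles on values as deposited and squares with the common floor, filled where the limma adjusted p is under 0.05. Filled symbols are in HET1 against WT and in HET1 mating 2 against mating 1.

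Litters of the same cross also differed. Zbed3 rose from a mean of 10.75 log2 RPM in HET1 mating 1 (9.53 to 11.55, n = 7) to 12.23 in HET1 mating 2 (10.36 to 13.25, n = 8), and 6 of the 8 embryos of mating 2 were above the highest of mating 1. The difference of 1.47 log2 (SE 0.41, limma adjusted p = 0.01) passed the test on the deposited values and with the common floor (limma adjusted p = 0.039), and the adjusted p lay between 0.00016 and 0.039 over the alternatives by limma. No embryo of these litters was left out on its own, and leaving out other litters or embryos kept the estimate at 1.47. On the deposited values 1 of 6 members was called, where 3.65% of all genes were called higher, and with the common floor 2 of 6, where 5.01% were. Ooep was 2.29 and 3.89 log2 RPM on average in these litters, and its difference of 1.60 (SE 0.74) had a limma adjusted p of 0.15 on the deposited values and 0.017 with the common floor (1.51), between 0.017 and 0.49 over 22 alternatives. Nlrp5, Tle6, Khdc3 and Padi6 differed by -0.003, -0.24, -0.49 and -0.59 and were not called.

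In the other crosses no member was called between the litters on the deposited values or with the common floor. In WT, where 2.94% of all genes were called (2.57% with the floor) and 2690 had an unadjusted p under 0.05, the difference of mating 2 from mating 1 was 2.15 log2 for Khdc3 (SE 0.87, limma adjusted p = 0.17), and 1.05 (SE 0.55, limma adjusted p = 0.38) with the common floor. It was 1.02 for Ooep, 0.155 with the floor, and 0.77 for Zbed3. Without WT embryo j the difference of Khdc3 was 2.04, that of Ooep 0.83 and that of Zbed3 0.35, that of Nlrp5 went from 0.59 to 0.35, that of Tle6 from 0.38 to 0.03 and that of Padi6 from 0.16 to -0.27. In the cross with Dppa2/4+/- males, where 4.51% of all genes were called (4.94% with the floor) and 3245 had an unadjusted p under 0.05, the difference of mating 2 from mating 1, adjusted for genotype, was -1.05 log2 for Nlrp5, -1.93 for Ooep (-1.02 with the floor), -0.69 for Tle6, -0.31 for Padi6 and -1.18 for Zbed3. For Khdc3 it was -0.07 (SE 0.86), while its mean not adjusted for genotype was 2.37 log2 RPM in mating 1 and 2.88 in mating 2. For Zbed3 and Ooep the sign was opposite to that between the HET1 litters, and the difference between the crosses was not tested. All 8 embryos of mating 2 were below the mating 1 mean of Zbed3, and its limma adjusted p was 0.14 on the deposited values, 0.24 with the common floor, and between 0.036 and 0.45 over 23 alternatives.

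Of the total spread over 44 embryos, the share between embryos of the same litter and genotype was 58.5% for Zbed3, 58.9% for Ooep, 63.3% for Khdc3, 70.8% for Tle6, 77.6% for Padi6 and 78.9% for Nlrp5. The share between groups ran from 8.3% for Nlrp5 to 25.2% for Tle6. Between litters within groups it was 23.0% for Zbed3 and 20.9% for Ooep, and 4.0% for Tle6 and 4.1% for Padi6. These are shares of the sum of squares, not corrected for the numbers of groups and litters. Low shares between groups or litters can therefore arise without any difference between them.

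After subtraction of litter and genotype means, Padi6 varied from embryo to embryo together with Tle6 and with Zbed3. Over 43 embryos, Pearson's r was 0.79 (Spearman's rho 0.74) for Tle6 and Padi6, 0.77 (0.62) for Padi6 and Zbed3, and 0.51 (0.49) for Tle6 and Zbed3. Without WT embryo j the r values were 0.73, 0.64 and 0.34. With each embryo re-centred on its own median they were 0.70, 0.66 and 0.30, and with both 0.63, 0.48 and 0.08, so that the value for Tle6 and Zbed3 rested on these choices. Ooep and Khdc3, the members with fewest reads, had r = -0.02. The median over 15 pairs was 0.27, against 0.17 with the common floor and 0.13 with re-centring. These are descriptions of embryos whose values share library and depth, and the correlation of the members with log2 total reads ran from -0.27 to 0.00.

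**Figure D4:**
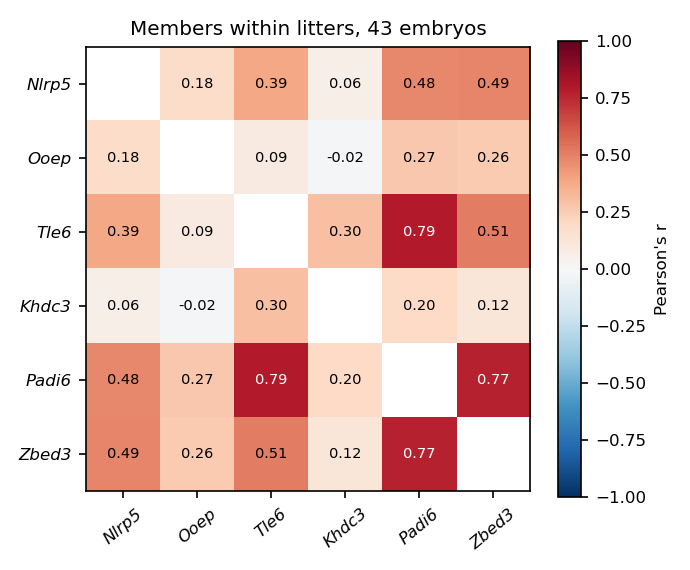
Pearson's r between members over 43 embryos after subtraction of litter and genotype means. The highest values are 0.79 for Tle6 with Padi6 and 0.77 for Padi6 with Zbed3, and Ooep with Khdc3 is at -0.02.

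The genes most like the mean of the members among 6915 genes with a mean log2 value of at least 3 were Mybl2 (r = 0.85), Rnf185 (0.85), Zhx3 (0.85), Fpgs (0.84) and Gm14453 (0.84). Without WT embryo j their r values were 0.75 to 0.77 and the 5 genes ranked 5, 8, 15, 16 and 10. The median r was 0.25 over all genes compared, from -0.74 to 0.85. It was 0.46 (-0.33 to 0.68) over 15 genes of the maternal list, 0.36 (-0.17 to 0.75) over 9 associated genes and 0.27 (-0.57 to 0.72) over 14 of the zygotic list.

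Among 10 genes whose proteins are known partners or relatives in the egg, Spin1, a histone reader, and Ube2d3, a ubiquitin-conjugating enzyme, had mean log2 RPM, not divided by length, of 11.85 and 10.35. They were the only 2 of 10 called higher in HET1 than WT on the deposited values, by 0.81 and 0.63 log2, a share near the 21.4% of all genes, and 0 of 10 were called with the common floor. With litter as a random effect the limma adjusted p of these 2 genes was 0.18 to 0.22. Among genes with a mean log2 value of at least 3, tested alone, 7.67% were called higher. Of the 10, only Nlrp2 lies under that level, at 2.59, and calls among the 10 in that test were not counted. In HET1 mating 2 against mating 1, where 13.7% of all genes were called in either direction, 3.65% higher and 10% lower, 5 of the 10 rose, Ube2d3 by 1.73, Spin1 by 1.59 and Nlrp14 by 1.08 among them, and Kpna2 fell. Among genes with a mean log2 value of at least 3, tested alone, 8.24% were called higher and 24.8% lower. With the common floor 5 rose and 2 fell, Dnmt1 with Kpna2, where 5.01% of all genes were called higher and 11.7% lower. With each embryo re-centred on its own median 6 rose and 0 fell, where 6.83% of all genes were called higher and 6.6% lower. In mating 2 of the cross with Dppa2/4+/- males, where 2.3% of all genes were called lower, 3 of the 10 fell, Spin1 by 1.24, Ube2d3 by 0.94 and Nlrp4f by 1.61, and 3 fell with the floor, where 2.6% were. Positive differences were found for 7 of the 10 in the first of these comparisons and for 3 in the second.

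Of 21 other oocyte transcripts, 10 were called higher in HET1 than WT on the deposited values and 3 with the common floor, where 21.4% and 2.49% of all genes were, with medians of 1.04 and 0.71 log2. With litter as a random effect the limma adjusted p of these 10 genes was 0.12 to 0.24. Between HET1 litters, 5 of the 21 rose in mating 2, where 3.65% of all genes did (6 with the floor, where 5.01% did), and 0 fell, where 10% did (0 with the floor, where 11.7% did). With each embryo re-centred on its own median 9 rose and 0 fell, where 6.83% and 6.6% of all genes did. In mating 2 of the cross with Dppa2/4+/- males 6 fell, where 2.3% of all genes did (4 with the floor, where 2.6% did), and 0 rose, where 2.21% did (0 with the floor, where 2.34% did). Btg4, which recruits the deadenylase that clears maternal messages, rose by 2.52 in HET1 mating 2 and fell by 2.55 in mating 2 of the cross with Dppa2/4+/- males. Oosp1, an oocyte-secreted protein, rose by 2.70 and fell by 2.11 in the same comparisons, and both were called with the floor too. Of 15 genes of the zygotic list, 2 were called higher and 3 lower in HET1 than WT on the deposited values, where 21.4% and 3.35% of all genes were (7.67% and 6.5% of genes with a mean log2 value of at least 3, tested alone). With the common floor 2 were called higher and 2 lower, where 2.49% and 2.05% of all genes were, and with litter as a random effect the limma adjusted p of the 5 genes was 0.13 to 0.26. Between HET1 litters, 3 of the 15 rose and 1 fell in mating 2, and 4 rose and 1 fell with the floor. In mating 2 of the cross with Dppa2/4+/- males 1 rose and 3 fell on both scales. The shares of all genes are those given for the oocyte transcripts on each scale. The 1 of 15 that fell between HET1 litters is under the share of all genes on the deposited values and with the floor. Re-centred, 3 of the 15 rose and 0 fell. Tcstv1, a two-cell transcript, rose by 4.75 in the first of these and fell by 3.92 in the second. Without WT embryo j, 2 of the 10 associated genes, 8 of the 21 oocyte transcripts and 2 of the 15 zygotic genes were called higher in HET1 than WT, where 17.3% of all genes were, and 2 zygotic genes lower, where 2.88% were. Members had a median difference of 1.09 in HET1 against WT, where the median of all genes tested was 0.61 on the deposited values and 0.05 with the common floor, under which the members' median was 1.03.

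**Figure D5:**
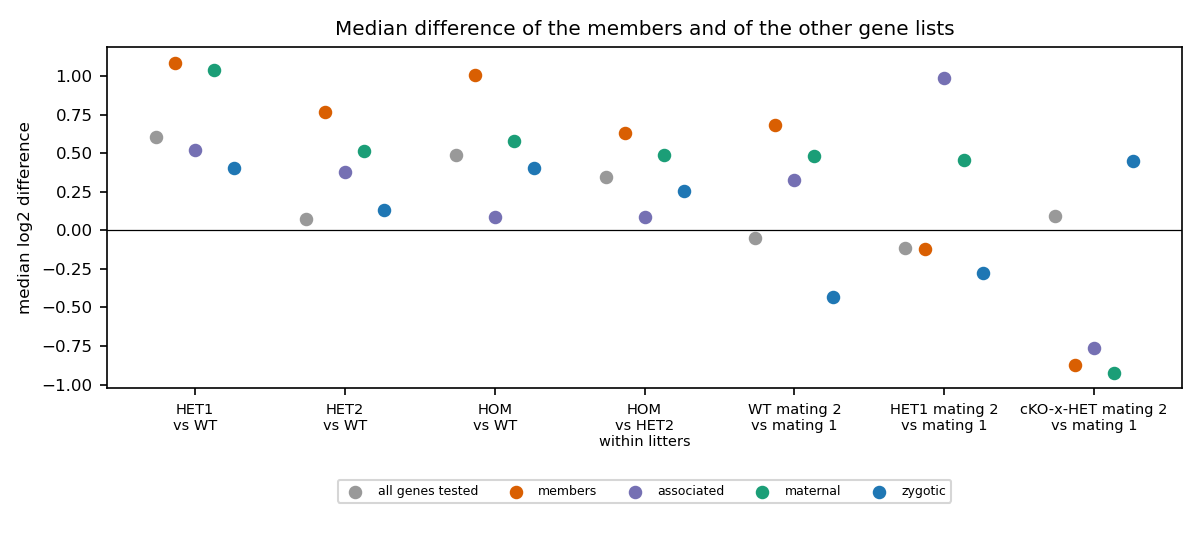
Median log2 difference on the deposited values of all genes tested, the 6 members, 10 associated genes, 21 maternal and 15 zygotic genes in 7 comparisons, each point being 1 median. Members sit at 1.09 in HET1 against WT, where all genes sit at 0.61, and at -0.87 in mating 2 against mating 1 of the cross with Dppa2/4+/- males.

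Paralogues of the members were unevenly present. Padi1 had 0 reads in all 44 embryos, Padi2, Padi3 and Padi4 had reads in 17, 2 and 10, and Padi6 in 44. Khdc1b and Khdc1c, relatives of Ooep and Khdc3, had mean levels of 707 and 176 RPM per kb of merged exons, against 3.84 for Ooep and 3.38 for Khdc3. Tle4 was the highest of 4 paralogues of Tle6, at a mean of 9.1 RPM per kb against 11.0 for Tle6.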

How the data were processed

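Single two-cell embryos were sequenced by Smart-seq2, which captures messenger RNA by oligo-dT, with Nextera XT libraries. Per the labels, reads were trimmed with Trim Galore 0.6.5 (cutadapt 2.3) and aligned with HISAT2 2.1.0 to GRCm38. The authors deposited log2 RPM per gene, in which a gene without reads holds the value of 0.9 read. Whole reads were recovered for 99.9997% of values within 0.05 read, and odd numbers made up 73.0% of values from 1 to 20 reads. Sequencing was paired-end, and the cause of the excess of odd numbers was not tested. Recovered reads were not shown to be separate molecules. No count test was run on them other than voom, since the deposited unit is log2.

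Differences were tested with limma 3.58.1 (trend) over 16412 genes, without litter for groups against WT and with litter for the other 4 comparisons, with Benjamini-Hochberg adjustment at 0.05. The script was tested on simulated data, which showed calls without change for HET1 against WT on the deposited values and none with the common floor; the design was kept and both are reported. Members and gene lists were chosen with earlier results of these data known. Named genes were the members, called or most abundant genes of each list, and the 5 most correlated genes. The common floor, other filters, pseudocounts, weights, depth, litter, replicate and mating alternatives were run; 4 that leave out WT embryo j or HOM embryo f or h were added after seeing the data. Mating numbers do not pair litters: between crosses the mating differences correlated at -0.81, -0.43 and 0.43.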

Additional observations from a re-analysis of the deposited data

Results flagged for a closer look

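In HOM embryos, 1 embryo lay far from the other 9 for each of 2 members. Tle6 was lowest in HOM embryo f, at 2.15 log2 RPM (3 reads). Khdc3 was highest in HOM embryo h, at 6.28 log2 RPM (64 reads). In each case the gap to the nearest embryo, divided by the range of the group, passed Dixon's 95% limit. Chance flags about 1 in 20 groups, and 12 were tested.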

How the results depend on the processing

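Of 1060 alternative values for the members' differences, 1000 kept direction and side of the threshold, 26 changed sign, none with a call on either side, 24 lost a call and 10 gained one. Many of the 1000 could not move: leaving out a litter or embryo outside a comparison leaves its estimate as it was. Zbed3 between HET1 litters, for example, stayed at 1.474. The 1000 are therefore not a measure of how firm the differences are. The count of members called in HET1 against WT (3) became 0 with the depth covariate, in embryos with at least 500000 reads, with litter random, with litter means and with the common floor without WT embryo j, ran from 0 to 4 when 1 of the 6 litters, the 5 HET2 embryos, WT embryo j or HOM embryos f and h was left out, and became 4 without a filter, where 67.5% of all genes were called higher, with array weights (Padi6 added), where 31.1% were, and without mating 2 of the WT cross (Khdc3 added), where 22.8% were. It became 1 with array weights in HOM against WT, where 6.03% of all genes were called; 2 with the common floor, with or without WT embryo j, and with log2(RPM + 4) in HET1 mating 2 against mating 1, where 5.01%, 5.08% and 5.4% of all genes were called higher; and 1 without a filter and without WT embryo j, where 1.59% and 5.34% of all genes were called, and 0 to 1 by leaving out, in the cross with Dppa2/4+/- males. Associated genes called in HET1 against WT (2) became 4 without a filter (3 higher and 1 lower), 0 with the floor and, re-centred, 1, which was called lower while the 2 were higher. Of all genes, 67.5% were called higher and 2.32% lower without a filter. The shares were 2.49% and 2.05% with the floor, and 13.3% and 4.95% re-centred. Genes called higher in HET1 fell from 3505 to 409 with the floor. In embryos with at least 500000 reads 1.89% of all genes were called in HET1 against WT, 1.07% higher. With litter means 0 of 16412 genes were called in that comparison.

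Changes of sign, none of them called, were as follows. With each embryo re-centred, Nlrp5 was at -0.009 in HOM against WT, -0.109 in HOM against HET2 and 0.345 between HET1 litters, where Tle6 was at 0.106. Without the replicate block of litter, HOM against HET2 was -0.327 for Nlrp5, -0.212 for Ooep and -0.073 for Zbed3; mating number as a replicate block kept 3 members called in HET1 against WT and changed no other count of members called, while the genes called went from 4054 to 3508 in HET1 against WT and from 12 to 23 in HOM against WT. Between HET1 litters, array weights gave 0.28 for Nlrp5 and 0.001 for Khdc3, and embryos with at least 500000 reads gave 0.651 for Tle6 and 0.075 for Padi6, and 0.069 for Khdc3 in the cross with Dppa2/4+/- males. Padi6 between WT litters was -0.274 without WT embryo j, also with the floor, and 0.157 when a litter or embryo of another cross was left out. Leaving out 1 of these litters or embryos gave -0.626 to 1.525 for Khdc3 in HET1 against WT. In HET2 against WT it gave -0.306 to 0.863 for Nlrp5, -0.592 to 1.313 for Ooep, -0.654 to 0.951 for Tle6, -0.784 to 1.632 for Khdc3, -0.038 to 1.184 for Padi6 and -0.735 to 1.17 for Zbed3. In HOM against WT it gave -0.119 to 1.005 for Nlrp5 and -0.005 to 2.078 for Ooep. Between litters of the cross with Dppa2/4+/- males it gave -0.518 to 0.061 for Khdc3 and -0.361 to 0.041 for Padi6. The cause of these changes was not tested.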
